A study of Rattus norvegicus with 10 samples.

Results

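Histone genes were examined in female TgF344-AD rats, in the left hippocampus, in animals that had or had not eaten RG2833, an inhibitor of the histone deacetylases HDAC1 and HDAC3. Members were the gene symbols beginning with Hist and a cluster number, and 10 named genes of replacement histones. The count table of 17168 gene symbols held 31 of them, 24 replication-dependent genes and 7 replacement genes, and the replacement genes H1fx, H2afv and H3f3a were not analysed here. The 5 untreated animals ate ordinary rodent chow. The 5 treated animals ate chow with RG2833 at 750 mg per kg for 6 months from 5 months of age. All were taken at 11 months. Both groups carry the TgF344-AD transgenes, which the mouse prion promoter drives, so the comparison is between transgenic animals only. Each library came from the left hippocampus of 1 rat.

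Histones are the proteins on which nuclear DNA is wound. The replication-dependent genes lie in clusters and supply the bulk histones H1, H2A, H2B, H3 and H4 to dividing cells. Their mRNAs normally end in a stem-loop bound by SLBP and carry no poly(A) tail, although some of these genes also make polyadenylated transcripts in cells that have stopped dividing. Replacement histones are made throughout the cell cycle from ordinary polyadenylated mRNAs, and neurons, which do not divide, rely on them to renew chromatin. The libraries were made with an mRNA kit, so the counts describe transcripts that such a preparation retained.

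To show what distinguishes the promoters of the classes, the 250 bases before the annotated start of 6 members are given, for the 3 genes that fell in treated animals, for 2 replication-dependent genes that did not, and for a replacement gene with a cluster-like promoter. Sequences are from RefSeq on GRCr8, the build of that table and not that of the counts, and run 5′ to 3′ toward the gene. Capitals mark 4 promoter elements on either strand. The first is the TATA box, searched as TATAAA. The second is the CCAAT box, searched by those letters. The third is the octamer, searched as ATTTGCAT. The fourth is the GC box, searched as GGGCGG, and copies of it may overlap.
Hist3h2ba: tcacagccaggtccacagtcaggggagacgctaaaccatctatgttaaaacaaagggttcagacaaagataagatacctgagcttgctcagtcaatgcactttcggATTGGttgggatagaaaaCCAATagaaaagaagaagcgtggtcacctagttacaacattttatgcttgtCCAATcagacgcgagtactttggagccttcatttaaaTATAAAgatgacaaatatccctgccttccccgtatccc
Hist3h2a: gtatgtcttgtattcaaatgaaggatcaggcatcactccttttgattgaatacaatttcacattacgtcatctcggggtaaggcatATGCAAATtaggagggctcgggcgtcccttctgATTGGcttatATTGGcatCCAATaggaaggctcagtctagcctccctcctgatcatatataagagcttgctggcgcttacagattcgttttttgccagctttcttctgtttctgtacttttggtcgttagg
Hist1h2bk: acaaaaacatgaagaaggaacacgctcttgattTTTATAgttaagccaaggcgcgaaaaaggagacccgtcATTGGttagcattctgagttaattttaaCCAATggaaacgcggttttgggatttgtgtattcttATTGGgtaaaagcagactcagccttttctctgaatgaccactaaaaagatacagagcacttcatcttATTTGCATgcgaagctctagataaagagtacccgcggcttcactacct
H2afz: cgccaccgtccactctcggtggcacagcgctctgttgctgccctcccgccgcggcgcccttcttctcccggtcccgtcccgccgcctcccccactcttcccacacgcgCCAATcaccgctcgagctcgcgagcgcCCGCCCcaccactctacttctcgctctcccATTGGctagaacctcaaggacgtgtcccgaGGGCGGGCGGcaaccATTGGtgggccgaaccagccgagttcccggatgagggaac
H2afy: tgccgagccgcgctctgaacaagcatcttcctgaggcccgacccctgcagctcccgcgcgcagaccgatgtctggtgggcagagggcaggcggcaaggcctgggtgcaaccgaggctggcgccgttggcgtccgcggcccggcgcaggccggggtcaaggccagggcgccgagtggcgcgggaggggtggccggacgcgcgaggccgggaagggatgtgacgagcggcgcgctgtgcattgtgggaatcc
H3f3b: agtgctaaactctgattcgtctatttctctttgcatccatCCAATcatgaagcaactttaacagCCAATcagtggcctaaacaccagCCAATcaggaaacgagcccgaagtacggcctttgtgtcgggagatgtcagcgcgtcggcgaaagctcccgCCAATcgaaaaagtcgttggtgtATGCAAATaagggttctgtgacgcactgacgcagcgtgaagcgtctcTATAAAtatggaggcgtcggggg

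The windows lie at chr10:44225171-44225420 (plus strand) for Hist3h2ba, chr10:44233033-44233282 (plus strand) for Hist3h2a and chr17:47181941-47182190 (minus strand) for Hist1h2bk. Those of the replacement genes lie at chr2:229028845-229029094 (plus strand) for H2afz, chr17:8484300-8484549 (plus strand) for H2afy and chr10:101757637-101757886 (minus strand) for H3f3b. Of the 31 members, 26 could be matched to 1 promoter each, 20 of them replication-dependent and 6 replacement. The match was by current symbol for 10 and by a synonym for 16, among them Hist3h2a, Hist1h2bk, H2afz and H2afy. Histone symbols have been reassigned, so for cluster genes it is uncertain that the window belongs to the copy that was counted. The CCAAT box was present in 18 of the 20 replication-dependent windows (90%) and in 3 of the 6 replacement windows, against 34.02% of 33469 rat promoter windows of the same length. The TATA box was present in 11 of 20 (55%) and in 1 of 6, against 12.93% of all windows. In 4 of the 11 (Hist1h2af, Hist1h2an, Hist1h2bk and Hist1h2bo) the letters were found only on the opposite strand, 141 to 236 bases before the start. On the strand of the gene alone, a split made after the positions were seen, the counts were 7 of 20 (35%) and 1 of 6, against 8.06% of all windows. The octamer, known from H2B promoters as a binding sequence of the POU factor OCT1, was present in 8 of 20 (40%) and in 1 of 6, against 1.56%. By family, the octamer was found in 4 of 6 H2B and 4 of 7 H2A windows and in none of the 7 windows of H1, H3 and H4 genes. Hist1h2aa with Hist1h2ba, and Hist3h2a with Hist3h2bb, share most of their windows. The octamer of each pair is a single site counted for both genes, and these windows are not independent in any of the counts. The GC box was present in 5 of 20 and in 3 of 6, against 30.47%.

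The 3 genes that fell did not share a promoter pattern. Hist3h2ba held 3 CCAAT boxes, the nearest 75 bases before the start, and a TATA box at 38 bases, with no octamer. H2afz held 3 CCAAT boxes and 3 GC boxes in a window of 69.2% G and C, and H2afy held none of the searched motifs at 73.6% G and C. H3f3b, the only one of the 6 matched replacement genes with a TATA box or an octamer, held 4 CCAAT boxes, an octamer at 70 bases and a TATA box at 23 bases. The windows of Hist3h2a and Hist3h2bb shared 217 bases on opposite strands, so that the same octamer and CCAAT boxes face both genes. Hist3h2a had 180 to 258 counts per library and Hist3h2bb at most 2. The windows of the testis H2A and H2B genes Hist1h2aa and Hist1h2ba shared 239 bases, and neither gene exceeded 5 counts.

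Total counts ranged from 8764266 to 11311673 per library, and 3 counts corresponded to 0.268 to 0.343 CPM (counts per 1000000 after TMM scaling of the library sizes, the unit used below). This floor covers counting error only, whereas the SEs and intervals below come from the spread between animals. Ribosomal RNA loci took a share of counts that also differed, at 2.70 to 5.36% in untreated and 1.13 to 1.96% in RG2833 animals, without overlap. Untreated replicate 1 stood apart in choroid plexus markers, with a summed level of 2498 CPM against 4.39 to 45.7 CPM in the other 9 libraries. Among 8 excitatory neuron markers, 7 had a positive and 1 a negative log2 difference. At an unadjusted edgeR p under 0.05, 4 passed, 3 higher and 1 lower, beside 24.5% of all genes tested. After adjustment 0 passed, beside 5.08% of all genes. The summed level of the 8 markers was 1803 to 2739 CPM in untreated and 2816 to 3303 CPM in RG2833 animals. The marker Slc17a7 alone supplied 1266 to 1801 and 1906 to 2344 CPM of it. All 6 endothelial and pericyte markers had a negative difference, 3 at an unadjusted edgeR p under 0.05 (12.7% of all genes were lower at this limit). After adjustment 0 of the 6 passed (5.08% of all genes). Their summed level was 218 to 315 CPM against 200.2 to 221 CPM. Of 7 microglia markers, 6 had a negative difference, 2 of them at an unadjusted edgeR p under 0.05 (12.7% of all genes). The only 1 called, Aif1, fell narrowly past the threshold (edgeR adjusted p = 0.0496), beside 2.67% of all genes called lower. The summed level of the 7 markers was 409 to 664 CPM against 406 to 518 CPM. The part of these differences in the results below was not tested, and in bulk tissue fewer cells of a type and less RNA per cell cannot be told apart.

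Detection differed between the classes, which overlapped in level. All 7 replacement genes had at least 3 counts in every library and passed the low-count filter. Of the 24 replication-dependent genes, each had a count in some library, 11 had at least 3 counts in every library and 10 passed the filter, against 11983 and 11791 of all 17168 symbols. Requiring at least 10 counts in every library left 8 replication-dependent genes and requiring 1 count gave 13, while all 7 replacement genes met both limits. The replication-dependent genes together took 0.0113 to 0.0143% of the counts of a library, and the replacement genes took 0.0512 to 0.0638%.

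**Figure D1:**
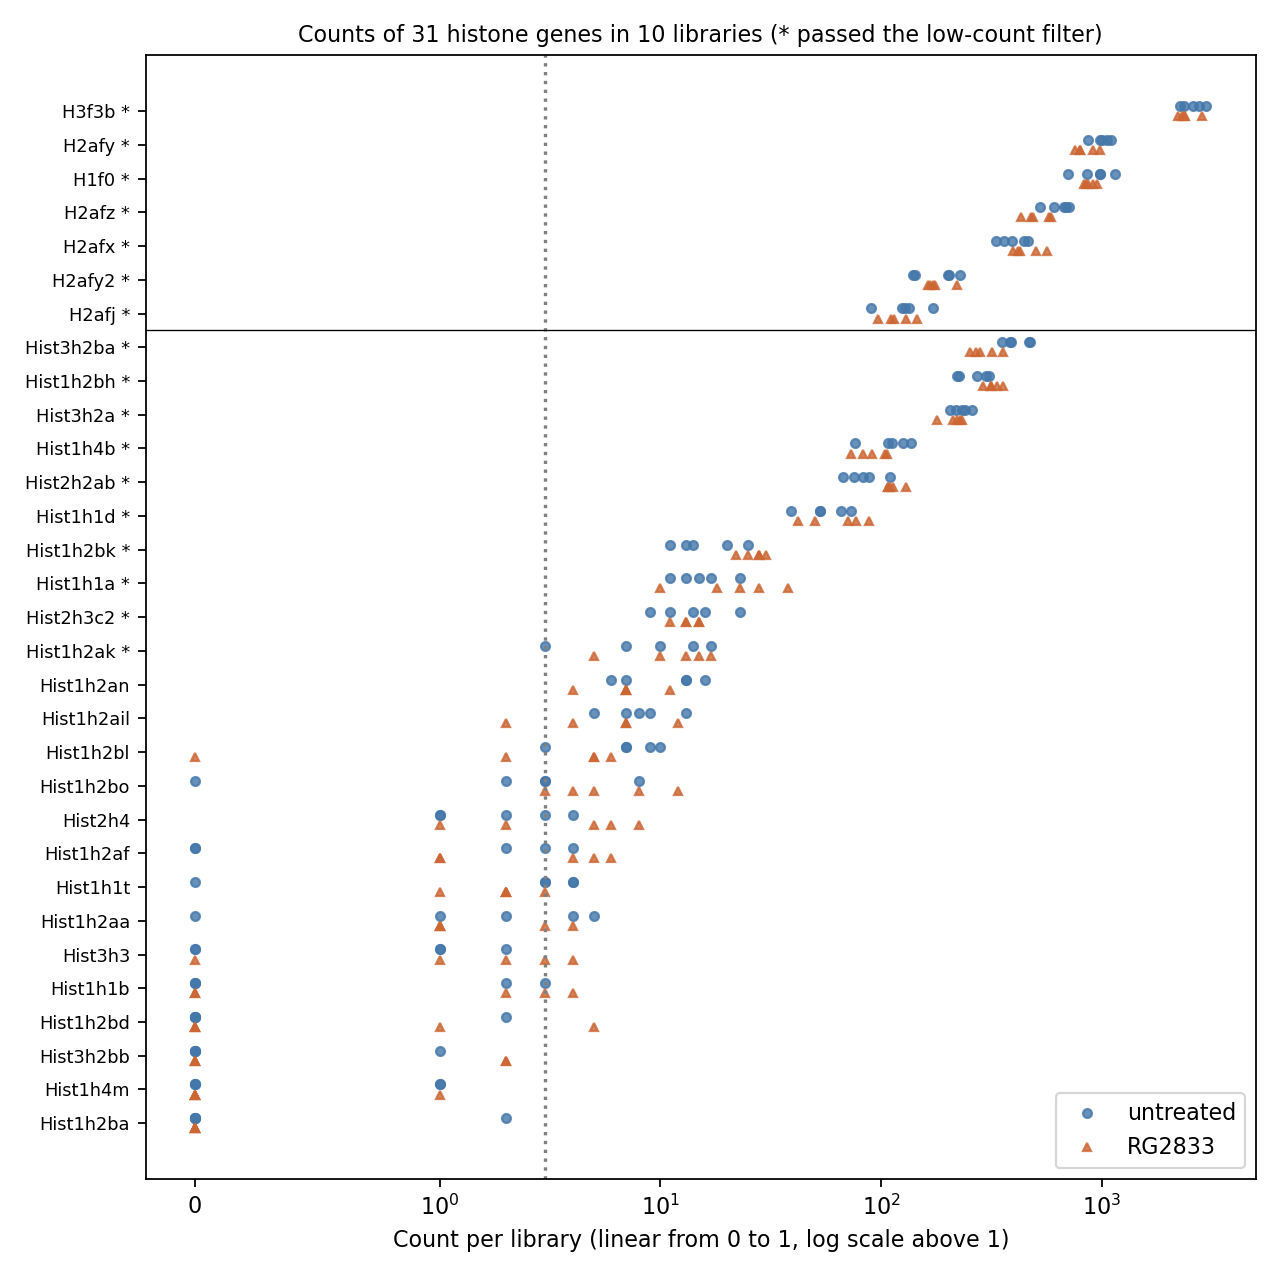
Counts per library (horizontal axis, linear from 0 to 1 and logarithmic above) of the 31 histone genes, replacement genes above the horizontal line and replication-dependent genes below it; circles are the 5 untreated and triangles the 5 RG2833 libraries, an asterisk marks genes that passed the filter, and the dotted line marks 3 counts. The 7 replacement genes lie between 90 and 2964 counts in every library, whereas the 14 genes without an asterisk lie between 0 and 16.

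The 10 replication-dependent genes that passed included the linker histone genes Hist1h1a and Hist1h1d, the H2A genes Hist1h2ak, Hist2h2ab and Hist3h2a, and the H2B genes Hist1h2bh, Hist1h2bk and Hist3h2ba. They also included 1 H3 gene, Hist2h3c2, and 1 H4 gene, Hist1h4b. The 14 that did not pass had 0 to 16 counts per library, and 11 of them were at 0 in some library. Among them, Hist1h1t, Hist1h2aa, Hist1h2ba and Hist3h3 encode histones known mainly from testis. Hist1h2ba had 2 counts in untreated replicate 1 and 0 in the other 9 libraries. The others were Hist1h1b, Hist1h2af, Hist1h2ail, Hist1h2an, Hist1h2bd, Hist1h2bl, Hist1h2bo, Hist1h4m, Hist2h4 and Hist3h2bb. No difference between the groups was detectable at this depth for these genes, and when the filter was dropped 0 of the 14 passed the edgeR test (3.21% of all 14628 genes then tested passed) and 0 had an unadjusted p under 0.05 (21% of all genes). With so few counts the 0 says nothing particular about these genes.

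The deposited estimates show that some reads were divided between genes. They were fractional, by more than 0.005 of a count, in some library for 19 of 24 replication-dependent genes and for 3 of 7 replacement genes (H2afx, H2afy2 and H2afj). The estimates of Hist1h1a and Hist1h1d were fractional in all 10 libraries, yet their sum was a whole number in each (within 0.025), as arises when reads that match both genes are divided between them. The same held for Hist3h2ba with Hist3h2bb, and for Hist1h2ail with Hist2h3c2, each fractional in 3 libraries. Hist1h2ail, an H2A gene by its symbol, thus shared reads with an H3 gene. Both are kept in the family of their symbol in the counts and sums given here, and the family of those reads is uncertain. Values of single cluster genes are uncertain to this extent. The partner of Hist3h2ba had at most 2 counts.

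Against this background the effect of RG2833 on each gene was tested. Of all 11791 genes tested, 599 were called at an adjusted p under 0.05 (5.08%), 284 higher (2.41%) and 315 lower (2.67%) in RG2833 animals. Of the 17 histone genes tested, 3 fell and 0 rose. DESeq2, which called 11% of all genes, and limma-voom, which called 4.66%, called the same 3 histone genes and 0 others. They were 1 of 10 replication-dependent genes, Hist3h2ba, and 2 of 7 replacement genes, H2afy and H2afz. At an unadjusted edgeR p under 0.05, 2887 of all genes (24.5%) passed, as did 3 of the 10 (2 higher, beside 11.8% of all genes, and 1 lower) and 2 of the 7 (both lower, beside 12.7%). The groups did not overlap for these same 3 genes, all lower. All genes tested had 7.27% without overlap, 3.8% higher and 3.47% lower. The median log2 difference was 0.21 over the 10 replication-dependent genes and -0.12 over the 7 replacement genes, beside -0.0035 over all genes tested. The replication-dependent median depended on single animals. It was 0.07 without untreated replicate 2, 0.10 without untreated replicate 5, 0.06 without RG2833 replicate 3, 0.03 without RG2833 replicate 4 and 0.31 without RG2833 replicate 1. With a mean count of at least 50 required it was 0.01 over the 6 genes left.

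**Figure D2:**
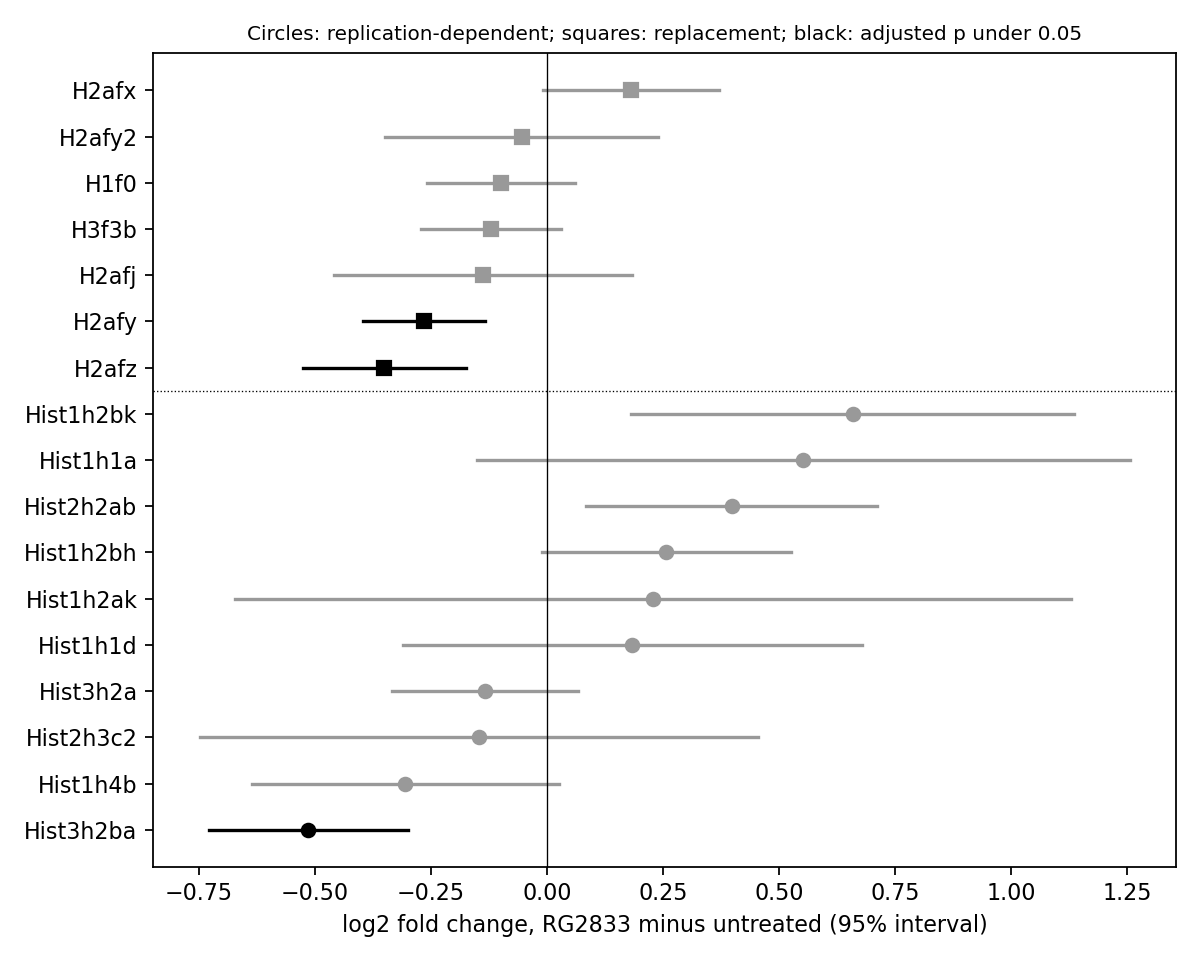
Log2 fold change of the 17 tested histone genes, RG2833 minus untreated, with 95% intervals (horizontal axis); squares are replacement and circles replication-dependent genes, and black marks an adjusted p under 0.05. Only Hist3h2ba, H2afy and H2afz are black, and the intervals of Hist1h2bk and Hist2h2ab also lie to the right of 0.

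Among the replacement genes, H2afz encodes H2A.Z, a variant placed at promoters and enhancers by the SRCAP and p400 complexes. It was at 69.3, 70.7, 62.7, 63.8 and 55.5 CPM in untreated replicates 1 to 5, and 54.9, 52.4, 49.6, 50.7 and 45.1 CPM in RG2833 replicates 1 to 5. The 5 treated values lay below the 5 untreated values, but the highest treated and the lowest untreated animal were close. H2afz fell, with a log2 change of -0.35 ± 0.08 (SE; edgeR adjusted p = 0.0345) with a 95% interval of -0.53 to -0.17. The animals had a mean of 64.4 ± 6.04 CPM without treatment and of 50.5 ± 3.62 CPM with RG2833 (SD, n = 5 each).

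H2afy encodes macroH2A, a variant with a large extra domain found on repressed chromatin. It was at 98.95, 105, 102, 93.6 and 103 CPM in untreated replicates 1 to 5, and 86.8, 87.9, 81.96, 78.6 and 82.96 CPM in RG2833 replicates 1 to 5. The lowest untreated animal, replicate 4, was above the highest treated animal, replicate 2. H2afy fell with a log2 change of -0.26 ± 0.06 (SE; edgeR adjusted p = 0.0328) and a 95% interval of -0.40 to -0.13. The related gene H2afy2, which encodes a second macroH2A protein, was at 16.02, 22.7, 18.9, 13.2 and 21.2 CPM in untreated replicates 1 to 5, and 16.8, 19.7, 16.8, 17.8 and 17.4 CPM in RG2833 replicates 1 to 5. Its groups overlapped widely, and its log2 difference of -0.05 ± 0.14 (SE; edgeR adjusted p = 0.841) had an interval of -0.35 to 0.24 that includes the value found for H2afy.

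H2afx encodes H2A.X, which is phosphorylated at DNA breaks and whose mRNA is known both with a stem-loop and with a poly(A) tail. It was at 41.2, 44.5, 43.00, 36.5 and 35.01 CPM in untreated replicates 1 to 5, and 48.3, 50.1, 44.03, 43.2 and 41.3 CPM in RG2833 replicates 1 to 5. It was the only replacement gene with a positive difference, 0.18 ± 0.09 (SE; edgeR adjusted p = 0.224), its groups overlapped, and it did not pass. Within each animal the ratio of H2afz to H2afx counts does not depend on library scaling. This ratio was 1.46 to 1.75 in untreated and 1.04 to 1.17 in RG2833 animals, so it separated the groups. The pair was chosen after its values were seen, and the ratio is a description.

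H3f3b encodes the H3 replacement variant that HIRA and the DAXX and ATRX pair deposit. It was at 269.97, 275, 239.5, 276 and 239 CPM in untreated replicates 1 to 5, and 227, 254, 243, 239.6 and 232 CPM in RG2833 replicates 1 to 5. The groups overlapped, and the log2 difference of -0.12 ± 0.07 (SE; edgeR adjusted p = 0.306) had an interval of -0.27 to 0.03. H1f0, a linker histone of differentiated cells, was at 80.8, 97.7, 91.00, 106 and 90.5 CPM in untreated replicates 1 to 5, and 86.6, 85.3, 89.4, 87.4 and 86.9 CPM in RG2833 replicates 1 to 5. Untreated animals spread on both sides of the narrow treated range, and the difference of -0.10 ± 0.07 (SE; edgeR adjusted p = 0.427) did not pass (interval -0.26 to 0.06). H2afj, an H2A variant made outside S phase, was at 14.3, 13.4, 15.8, 11.9 and 9.52 CPM in untreated replicates 1 to 5, and 13.8, 10.3, 11.5, 13.3 and 10.1 CPM in RG2833 replicates 1 to 5. Its groups overlapped throughout, with a difference of -0.14 ± 0.15 (SE; edgeR adjusted p = 0.598).

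Summed over the 7 genes, replacement histones were at 555 to 629 CPM in untreated and 516 to 560 CPM in RG2833 animals. The sums overlapped between 1 untreated and 1 treated animal, replicate 5 and replicate 2, although with library totals in place of TMM they were narrowly apart (555.1 to 638 and 512 to 554.6), and the log2 ratio of the group means was -0.14. H3f3b alone supplied 227 to 276 CPM of this sum, and its own difference did not pass.

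Among the replication-dependent genes, Hist3h2ba, an H2B gene, was the one called. It was at 44.5, 46.6, 43.9, 35.6 and 37.3 CPM in untreated replicates 1 to 5, and 34.2, 28.5, 27.7, 28.97 and 26.4 CPM in RG2833 replicates 1 to 5. Every treated animal was below every untreated animal, with RG2833 replicate 1 nearest to the untreated range. Hist3h2ba fell with a log2 change of -0.51 ± 0.10 (SE; edgeR adjusted p = 0.0183) and a 95% interval of -0.73 to -0.30, corresponding to a mean of 41.6 ± 4.82 CPM without treatment and of 29.1 ± 2.97 CPM with RG2833 (SD, n = 5 each).

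Hist3h2a, an H2A gene of the same small cluster by its name, was at 25.1, 25.8, 22.2, 21.6 and 21.7 CPM in untreated replicates 1 to 5, and 21.1, 20.3, 23.98, 21.8 and 18.8 CPM in RG2833 replicates 1 to 5. Its groups overlapped and its difference of -0.13 ± 0.09 (SE; edgeR adjusted p = 0.396) did not pass. The ratio of Hist3h2ba to Hist3h2a counts was 1.65 to 1.98 in untreated and 1.16 to 1.62 in RG2833 animals, so every treated library was below the untreated range. The remaining genes of that cluster, Hist3h2bb and Hist3h3, had at most 4 counts in any library.

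The other H2B genes that passed the filter had differences of the opposite sign. Hist1h2bh was at 34.3, 22.5, 25.3, 28.6 and 23.3 CPM in untreated replicates 1 to 5, and 27.6, 29.8, 32.6, 32.7 and 37.5 CPM in RG2833 replicates 1 to 5. Its difference was positive, 0.26 ± 0.12 (SE; edgeR adjusted p = 0.223), and untreated replicates 1 and 4 lay among the treated animals. The ratio of Hist3h2ba to Hist1h2bh counts was 1.25 to 2.08 in untreated and 0.704 to 1.24 in RG2833 animals. Its groups did not overlap by a narrow margin, between untreated replicate 4 and RG2833 replicate 1. This pair and the pair with Hist3h2a were also chosen after their values were seen.

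Hist1h2bk was at 1.26, 1.998, 2.32, 1.21 and 1.48 CPM in untreated replicates 1 to 5, and 2.86, 2.50, 2.89, 2.28 and 2.62 CPM in RG2833 replicates 1 to 5. Untreated replicate 3 was just above the lowest treated animal. This was the largest positive difference among the 17 tested members, 0.66 ± 0.22 (SE; edgeR adjusted p = 0.0929), on 11 to 30 counts per library, and it did not pass. Summed over its 8 H2B genes, the replication-dependent class was at 62.8 to 82.0 CPM in untreated and 61.8 to 68.2 CPM in RG2833 animals, which overlapped.

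Of the H2A genes, Hist2h2ab was at 10.1, 8.29, 6.95, 10.2 and 7.09 CPM in untreated replicates 1 to 5, and 10.2, 9.81, 13.3, 11.7 and 11.2 CPM in RG2833 replicates 1 to 5. Untreated replicates 1 and 4 reached the level of the lower treated animals, and the difference of 0.40 ± 0.14 (SE; edgeR adjusted p = 0.115) did not pass. Hist1h2ak was at 1.14, 0.699, 1.58, 1.30 and 0.317 CPM in untreated replicates 1 to 5, and 0.477, 0.892, 1.76, 1.55 and 1.36 CPM in RG2833 replicates 1 to 5. On 3 to 17 counts per library no difference was detectable (0.23 ± 0.42 (SE; edgeR adjusted p = 0.773)).

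The linker genes Hist1h1a and Hist1h1d, which shared reads, both varied more among treated animals. Hist1h1a was at 1.26, 1.30, 2.13, 1.58 and 1.59 CPM in untreated replicates 1 to 5, and 0.954, 2.50, 1.86, 3.93 and 2.41 CPM in RG2833 replicates 1 to 5. Hist1h1d was at 6.06, 3.90, 6.76, 4.93 and 6.98 CPM in untreated replicates 1 to 5, and 4.01, 6.87, 7.34, 9.10 and 5.23 CPM in RG2833 replicates 1 to 5. RG2833 replicate 4 was the highest animal and RG2833 replicate 1 among the lowest for both genes, and the differences of 0.55 ± 0.32 (SE; edgeR adjusted p = 0.313) and 0.18 ± 0.23 (SE; edgeR adjusted p = 0.654) did not pass.

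The H4 gene Hist1h4b was at 12.8, 10.7, 12.6, 11.7 and 8.04 CPM in untreated replicates 1 to 5, and 6.96, 9.45, 10.7, 9.41 and 8.68 CPM in RG2833 replicates 1 to 5. Its difference of -0.30 ± 0.15 (SE; edgeR adjusted p = 0.239) did not pass, and untreated replicates 2 and 5 lay among the treated animals. The H3 gene Hist2h3c2 was at 1.26, 0.899, 1.30, 1.49 and 2.43 CPM in untreated replicates 1 to 5, and 1.24, 1.16, 1.14, 1.55 and 1.57 CPM in RG2833 replicates 1 to 5, with untreated replicate 5 highest. Its difference of -0.15 ± 0.28 (SE; edgeR adjusted p = 0.783) had an interval of -0.75 to 0.45, which spans decreases and increases of considerable size.

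All 24 replication-dependent genes together were at 113 to 143 CPM in untreated and 114 to 128 CPM in RG2833 animals. The summed level thus overlapped, with a log2 ratio of the group means of -0.07. Without Hist1h2bh, Hist3h2a and Hist3h2ba, which had the most counts, the sum of the other 21 genes was 30.96 to 39.5 CPM and 31.2 to 43.9 CPM.

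**Figure D3:**
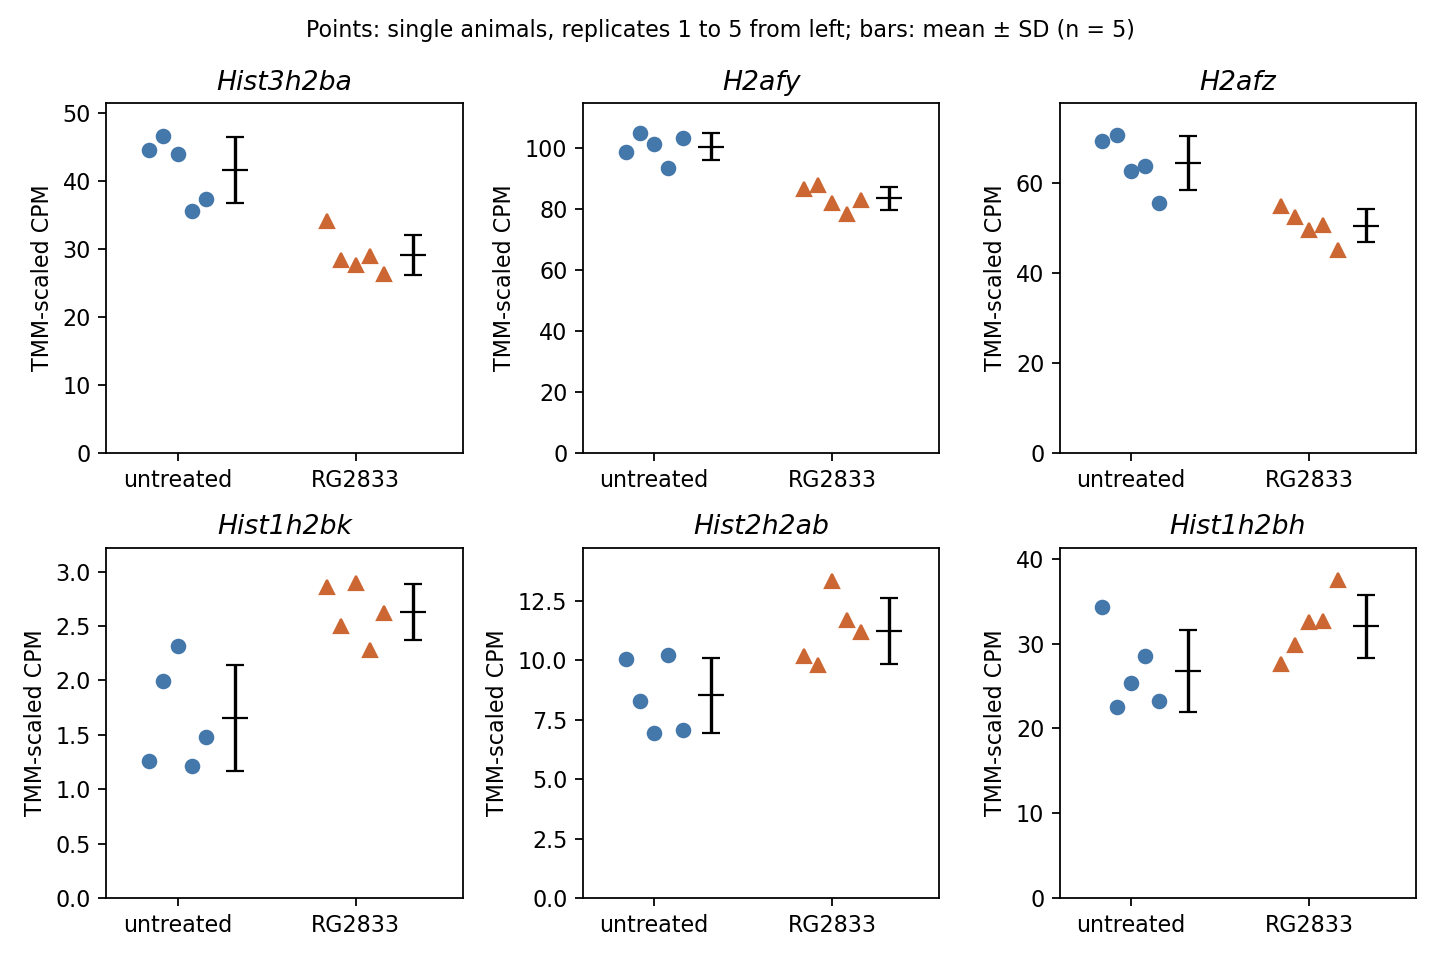
TMM-scaled CPM (vertical axes, from 0) of the 3 called members above and of 3 replication-dependent members with positive differences below, for each of the 5 untreated (circles) and 5 RG2833 animals (triangles), with the mean and SD as bars. The upper panels show groups without overlap, and the lower panels show overlap in each gene.

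The 3 calls stood beside the ribosomal RNA share, which also separated the groups. With the log2 share as a covariate, the number of all genes called was 2 in place of 599, and 0 histone genes were called. The log2 difference was then -0.19 for Hist3h2ba, -0.12 for H2afy and -0.19 for H2afz (edgeR adjusted p = 0.9999 for each). Treatment and ribosomal RNA share cannot be told apart in these libraries, because no untreated share lay within the treated range, and with 5 animals a group no correlation within groups was computed. The 3 changes are small, and the calls also depended on single animals. Hist3h2ba was called in 6 of the 10 fits that left out 1 animal, and not without untreated replicate 3 or RG2833 replicate 2, 3 or 5, where edgeR adjusted p-values were 0.0567 to 0.0609. Over all genes those fits called 113, 112, 118 and 98, in place of 599. H2afy and H2afz were called in 2 of the 10 fits, those without untreated replicate 4 or 5, where 1556 and 902 of all genes were called. The remaining fits called 98 to 280 of all genes, so calls were lost over all genes as well. The log2 change in the 10 fits stayed between -0.58 and -0.47 for Hist3h2ba, between -0.29 and -0.25 for H2afy, and between -0.40 and -0.31 for H2afz. Without untreated replicate 1, the animal with choroid plexus markers, Hist3h2ba was still called, whereas the adjusted p was 0.0574 for H2afy and 0.073 for H2afz (edgeR).

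**Figure D4:**
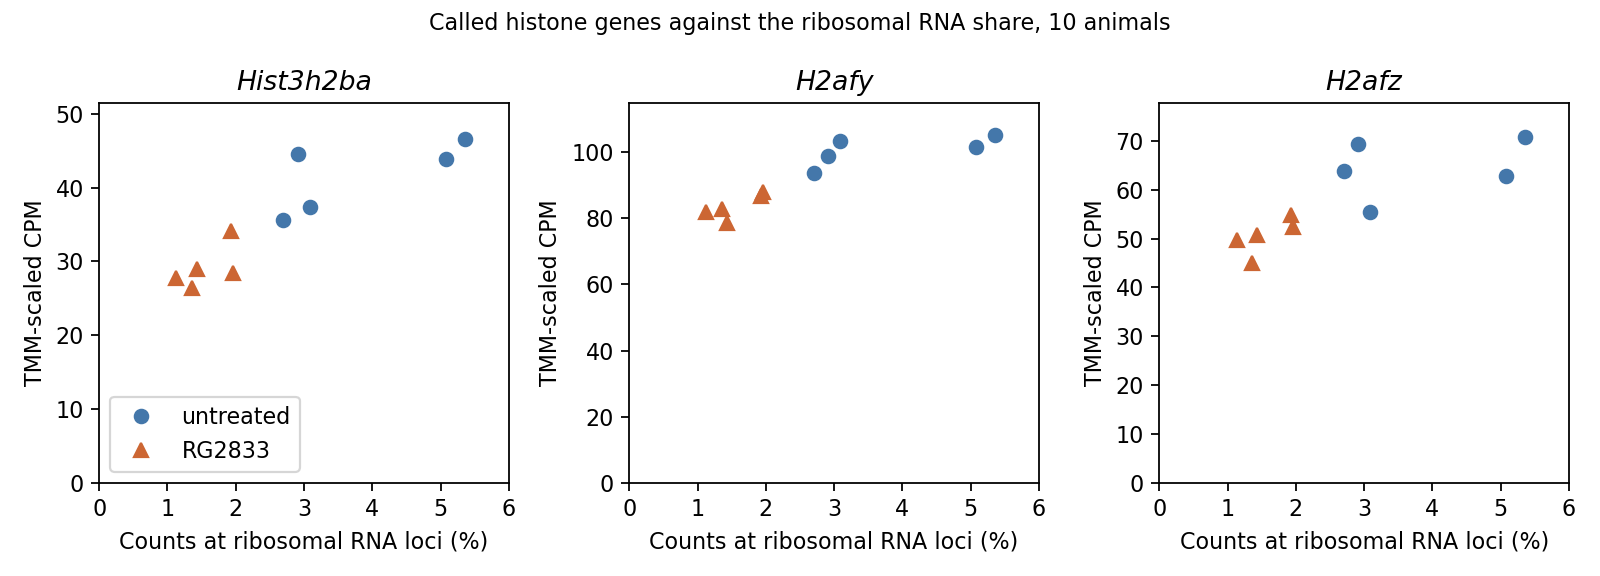
TMM-scaled CPM of Hist3h2ba, H2afy and H2afz (vertical axes, from 0) against the percentage of counts at ribosomal RNA loci (horizontal axes) in 5 untreated (circles) and 5 RG2833 animals (triangles). The treated animals lie at 1.13 to 1.96% and the untreated at 2.70 to 5.36%, so the groups are apart on both axes.

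Genes that process histone mRNA were examined next. Of 13 tested, 0 passed in edgeR (5.08% of all genes) and 2 had an unadjusted p under 0.05 (24.5% of all genes), and DESeq2 and limma-voom also called 0. In a list of this size these counts are near the shares of all genes. The median log2 difference was -0.02. The summed level of the 13 genes was 527 to 552 CPM in untreated and 492 to 524 CPM in RG2833 animals, which were narrowly apart. Scaled by library totals instead, the ranges were 529.9 to 560 and 488 to 531 and overlapped. Slbp, which encodes the stem-loop binding protein, was at a mean of 23.3 ± 4.16 CPM without treatment and of 17.7 ± 3.25 CPM with RG2833 (SD, n = 5 each), a difference of -0.39 ± 0.15 (SE; edgeR adjusted p = 0.132). Cstf2, a cleavage factor of mRNA ends, differed by -0.27 ± 0.09 (SE; edgeR adjusted p = 0.105) and Nelfe, a subunit of the negative elongation factor, by -0.18 ± 0.09 (SE; edgeR adjusted p = 0.244).

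Of 32 histone chaperone and exchange genes tested, 1 rose and 2 fell (9.38% called, beside 5.08% of all genes), and the median difference was -0.03. Cabin1, a subunit of the HIRA complex that deposits the H3 variant, was at 105, 111, 117, 126 and 130.00 CPM in untreated replicates 1 to 5, and 159, 153, 148, 140.3 and 169 CPM in RG2833 replicates 1 to 5. All treated animals were above all untreated animals, and Cabin1 rose, with a log2 change of 0.38 ± 0.08 (SE; edgeR adjusted p = 0.0225). Hira, Ubn1, Ubn2 and Asf1a of the same deposition pathway did not pass.

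Znhit1, a subunit of the SRCAP complex that exchanges H2A.Z into nucleosomes, was at 43.7, 49.3, 41.1, 37.6 and 41.3 CPM in untreated replicates 1 to 5, and 34.2, 30.5, 31.7, 33.6 and 32.6 CPM in RG2833 replicates 1 to 5. It fell without overlap between the groups, with a log2 change of -0.39 ± 0.08 (SE; edgeR adjusted p = 0.0251). Vps72, an H2A.Z binding subunit of the same complex, had a difference of the opposite sign, 0.21 ± 0.07 (SE; edgeR adjusted p = 0.0905), and did not pass. Yeats4, a reader subunit shared by SRCAP and p400, was at a mean of 26.2 ± 2.23 CPM without treatment and of 20.4 ± 2.59 CPM with RG2833 (SD, n = 5 each) and did not pass (-0.36 ± 0.10 (SE; edgeR adjusted p = 0.0606)). DESeq2 called Vps72 and Yeats4 as well as Znhit1.

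Rbbp4, a histone binding subunit shared by the CAF-1 chaperone and by HDAC1 complexes, was at 85.3, 86.9, 87.3, 82.5 and 85.7 CPM in untreated replicates 1 to 5, and 66.5, 67.1, 67.7, 79.1 and 66.3 CPM in RG2833 replicates 1 to 5. It fell without overlap, with a log2 change of -0.30 ± 0.07 (SE; edgeR adjusted p = 0.0272), with RG2833 replicate 4 nearest to the untreated animals. Npm1, a nucleolar chaperone, differed by -0.25 ± 0.07 (SE; edgeR adjusted p = 0.0588) and did not pass, although its groups did not overlap. DESeq2 called Npm1 and also Supt6h, a histone chaperone of transcription elongation, which did not pass in edgeR (0.31 ± 0.10 (SE; edgeR adjusted p = 0.0922)). In fits that left out 1 animal, Cabin1 was called in 5, Znhit1 in 4 and Rbbp4 in 3 of 10, and their log2 changes stayed at 0.35 to 0.42, -0.43 to -0.33 and -0.36 to -0.29. Over all genes these 10 fits called 98 to 1556, beside 599 with all animals. Replicate numbers name different animals, and same-numbered animals correlated at -0.066 on average. With the replicate number as a block, where 180 of all genes were called, none of these 3 genes was called, at 0.39, -0.39 and -0.31. In the fit that added the ribosomal RNA share none was called either, at 0.34 ± 0.16 for Cabin1, -0.22 ± 0.16 for Znhit1 and -0.28 ± 0.14 for Rbbp4 (SE).

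Genes of S phase and division, which accompany replication-dependent histone synthesis in cycling cells, were examined last. Of 15 tested, 0 passed in edgeR (5.08% of all genes) and 1 had an unadjusted p under 0.05 (24.5% of all genes), while DESeq2 called 1 (Pcna; 11% of all genes) and limma-voom 0. At the share of all genes, the 0 in edgeR is nothing particular to these genes. The median difference was -0.04. Pcna, the sliding clamp of DNA replication, was at a mean of 27.5 ± 2.77 CPM without treatment and of 22.2 ± 0.529 CPM with RG2833 (SD, n = 5 each) and had a difference of -0.31 ± 0.09 (SE; edgeR adjusted p = 0.0579), with the groups apart. Mcm4, a subunit of the replicative helicase, differed by 0.21 ± 0.11 (SE; edgeR adjusted p = 0.251) and Ccnb1, a mitotic cyclin, by -0.43 ± 0.28 (SE; edgeR adjusted p = 0.366). Top2a, Ccna2 and Cdk1 did not reach the count filter. The summed level of the 18 genes was 126 to 139 CPM in untreated and 125 to 140 CPM in RG2833 animals, so it overlapped, as did that of the replication-dependent histones.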

How the data were processed

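RNA from 10 left hippocampi was sequenced from libraries made with a strand-specific mRNA kit, per the labels' protocols. The submitters' processing notes name bcl2fastq 2.17, Bowtie2 2.1.0, RSEM 1.2.15, edgeR and build rn6; the gene annotation is not given in the sources used here. The authors deposited RSEM expected counts per gene symbol, not normalized, and a normalized signal, TMM-scaled CPM. RSEM divides reads that match several genes, which matters for near-identical histone genes.

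Expected counts were rounded. Genes were filtered with filterByExpr and tested with edgeR 4.0.16 (quasi-likelihood, TMM, no covariate, all 10 animals) in R 4.3.3, with Benjamini-Hochberg adjustment over 11791 genes and a threshold of 0.05. SE is the absolute log2 fold change over the square root of F. The 20 pairs of libraries within groups differed beyond sampling noise (chi-square per degree of freedom at least 4.74), so each counts as 1 animal. The test was tried on simulated data, where 173 of 200 genes changed by a log2 of 1 were recovered, with 12 false calls. The called members changed by less, so this does not measure recovery at their size.

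Members and gene lists were chosen with earlier results of these data known. Every member may be named; listed pathway genes were named where called or, where none was, by the 3 smallest p-values, and Vps72, Yeats4, Npm1, Supt6h, Hira, Ubn1, Ubn2 and Asf1a were chosen after their values were seen. Marker lists also covered interneurons, astrocytes, oligodendrocytes, their precursors and blood cells. Of the tested markers of these 5 lists, 0 passed in edgeR (5.08% of all genes). Only 1, of the precursors, had an unadjusted edgeR p under 0.05 (24.5% of all genes).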

Additional observations from a re-analysis of the deposited data

How the results depend on the processing

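The 3 histone genes called, Hist3h2ba, H2afy and H2afz, were called under both other scalings, both other filters, DESeq2 1.42.0 and, in limma 3.58.1, voom on the counts and a trend fit of the deposited CPM (pseudocounts 1 and 0.1). They were also called in 2 alternatives added after seeing the data, removal of the ribosomal RNA loci and summing of read-sharing pairs. The summing could hardly change these calls. H2afy and H2afz are in no such pair, and the partner of Hist3h2ba had at most 2 counts. When the share of ribosomal RNA entered as a covariate, the calls in all were 2, 0 replication-dependent, 0 replacement and 0 chaperone genes, and the median difference of replication-dependent genes was -0.18 in place of 0.21. With that covariate the differences of Hist1h1d, Hist1h2ak, Hist1h2bh, Hist2h2ab, H2afy2 and H2afj changed sign, and none of these was called in either fit. DESeq2 called 1295 genes in all, 7 chaperone genes and 1 gene of S phase, which library totals and a mean count of at least 50 also called (1). Npm1 was called by DESeq2, with library totals and with that mean count. Over the 10 fits that left out 1 animal, 98 to 1556 genes were called in all (most without untreated replicate 4), 0 to 1 replication-dependent, 0 to 2 replacement, 0 to 7 chaperone and 0 to 1 S phase genes, and the median difference ran from 0.03 to 0.31 for replication-dependent and from -0.15 to -0.10 for replacement genes. With a mean count of at least 50 the replication-dependent median was 0.01. Library totals alone made 38.3% of all calls higher, against 47.4% with TMM. Both groups carry replicate numbers 1 to 5, which name different animals, and deviations of same-numbered animals correlated at -0.066 on average (-0.32 to 0.15), with 1 of 5 untreated animals correlating best with its own number. With the replicate block 180 genes were called in all, 1 replacement gene (H2afz) and 0 chaperone genes, and Hist3h2ba was still called. Library depth limits the 14 replication-dependent genes that did not pass the filter. The overlap of groups under library totals was added after seeing the data; with it the groups of Hist3h2ba, H2afy and H2afz also did not overlap.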

Other observations

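Other histone genes in the table, outside the symbols examined above, were at the limit of detection. Cenpa, the centromeric H3 variant, had 5 counts over 4 of 10 libraries, and the germline genes H1foo and H2afb3 had 1 count each over all 10 libraries. H1fnt, a linker histone known from testis, had 0 counts. No library held a value outside Dixon's 95% limit for 5 samples (0.71) in 40 groups of 5 values, covering the 17 tested members, both class sums and the ribosomal RNA share in each treatment group; chance flags about 1 group in 20.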
